A study of Mus musculus with 6 samples.

Results

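The Notch pathway genes described here are 10 of the 37924 genes in a table of ovarian transcript levels, chosen by symbol as the ligands, receptors, a modifier and targets of the pathway in the follicle: Notch1, Notch2, Notch3, Notch4, Jag1, Jag2, Lfng, Hes1, Hey1 and Hey2. All 10 were found and all 10 had a mean high enough to be tested. Whole ovaries of mice at postnatal day 14, on the strain background C57BL/6J/129S7/SvEvBrd, were profiled by RNA sequencing. The 3 control libraries came from Ubc9flox/flox mice, and the 3 libraries called cKO here came from Ubc9flox/flox Gdf9iCre+ mice, so both groups carry the floxed allele and the groups differ by the Cre transgene. Gdf9iCre expresses the recombinase from the promoter of an oocyte gene, which leaves the somatic cells of the ovary outside its reach. Each library pooled 3 mice with 1 ovary per mouse, and all spreads below are therefore between pools of animals.

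Notch signalling passes between touching cells. A ligand of the Jagged or Delta family on 1 cell binds a Notch receptor on its neighbour, the receptor is cut by ADAM proteases and gamma-secretase, and the freed intracellular domain joins the DNA-binding protein RBPJ to switch on repressor genes of the HES and HEY families. In the mouse follicle JAG1 is made by the oocyte and NOTCH2 by the surrounding granulosa cells, while NOTCH1 and NOTCH4 are known from endothelial cells and NOTCH3 from the mural cells of vessels.

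Hey2 was the 1 gene of the 10 that passed the test. Its mean fell by 34.0% in cKO ovaries, while its relative Hey1 and the other target gene Hes1 had higher means in cKO and did not pass. The 4 receptors, both ligands and Lfng also had higher means in cKO, by 3.25% for Jag1, whose sign turned with scaling, and by up to 51.3% for Jag2, and none of these 7 passed. Over all 14934 genes tested, 334 (2.24%) rose and 312 (2.09%) fell, against 0 and 1 of the 10. Levels are FPKM, fragments scaled to transcript length and library size, given as mean ± SD of 3 libraries. Changes are cKO minus control on the log2(FPKM + 1) scale with limma's standard error (SE), and passing means a limma p below 0.05 after Benjamini-Hochberg adjustment over all genes tested. The median log2 change was 0.20 over the 10 genes and 0.05 over all genes tested, and 9 of the 10 were positive where 58.5% of all genes were.

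**Figure D1:**
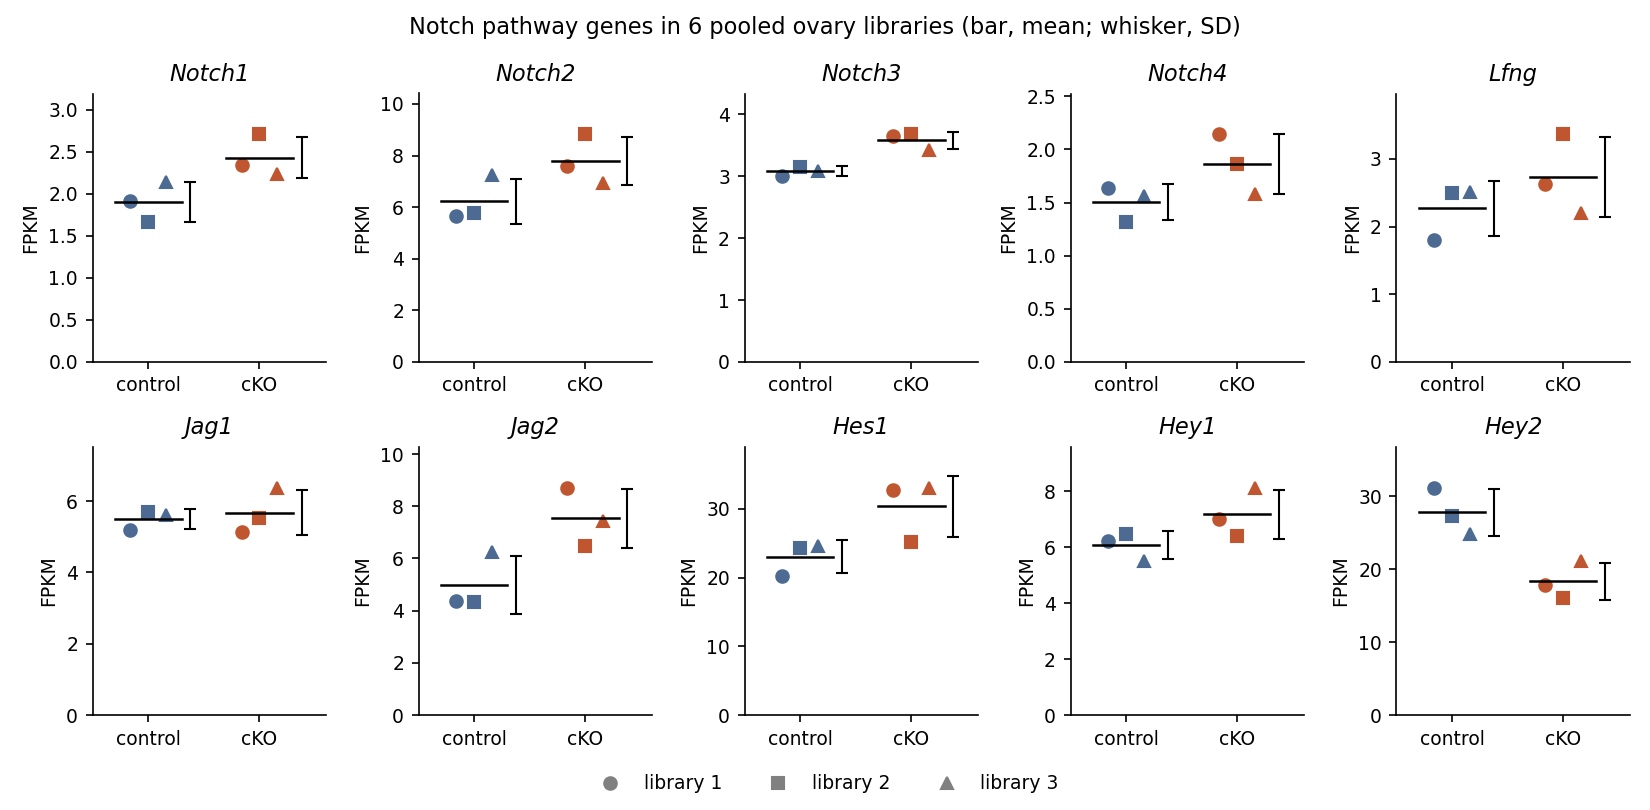
FPKM of each of the 10 genes (vertical axes, linear from 0) in the 3 control and 3 cKO libraries, with the mean as a bar and the SD as a whisker. The groups stand apart for Notch1, Notch3, Jag2 and Hes1, with cKO higher, and for Hey2, with cKO lower, and overlap for the other 5.

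The libraries were comparable in size. Estimated depth was 19.6 to 24.9 M fragments (1 M is 1000000), at which an FPKM of 1 in a transcript of 2 kb stands for 39.2 to 49.8 fragments. The oocyte gene Gdf9 ranged from 197 to 237 in control and from 198 to 343 FPKM in cKO. Foxl2, which marks granulosa cells, was at 77.5 FPKM or more in every library, as the ovary label implies. Some libraries stood apart by markers of other tissues. Adipoq, a fat cell hormone gene, was at 2.67 FPKM in control 3 and at most 0.49 FPKM elsewhere, and the neutrophil gene S100a8 was at 219 FPKM in cKO 3 and at most 0.59 FPKM elsewhere. Mitochondrial genes made up 11.9%, 13.8% and 14.2% of the summed FPKM in control and 7.31%, 13.9% and 10.7% in cKO, lowest in cKO 1, and the part of this share in the results was not tested. The library titles hold numbers in 2 ranges, with cKO 1 in the range of the controls and cKO 2 and cKO 3 in the other, and what the numbers stand for is not stated.

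The ligands start the signal. Jag1, the oocyte ligand (chromosome 2, 137081456 to 137116644, mm10), measured 5.18, 5.70 and 5.60 in control 1 to 3 and 5.13, 5.52 and 6.37 FPKM in cKO 1 to 3. The control values lie inside the cKO range. The log2 change was 0.04 with an SE of 0.10 and an adjusted p of 0.865, and its 95% interval ran from -0.20 to 0.27. The sign of this small difference turned with scaling, to -0.06 after quantile normalisation and -0.03 with libraries centred on the median, so no direction is given for Jag1.

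Jag2, the second Jagged ligand (chromosome 12, 112907819 to 112929776), measured 4.36, 4.32 and 6.26 in control and 8.71, 6.46 and 7.42 FPKM in cKO. Every cKO library was above every control library, although control 3 lay just below cKO 2. The log2 change of 0.52 (SE 0.16, 95% interval 0.16 to 0.88) had an unadjusted p of 0.0111 and an adjusted p of 0.101, so Jag2 did not pass. Without control 3, the library in which Jag2 was highest among the controls, the change was 0.67 and the adjusted p 0.0483, and without any other single library the adjusted p was 0.116 to 0.317. Within a library Jag2 over Jag1 was 0.84, 0.76 and 1.12 in control and 1.70, 1.17 and 1.16 in cKO, and control 3 again lay closest to the cKO libraries.

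The 4 receptor genes had control means from 1.51 to 6.22 FPKM. Notch2, the granulosa cell receptor (chromosome 3, 98013527 to 98150361), was the most abundant of the 4 per transcript length. It measured 5.67, 5.77 and 7.23 in control and 7.60, 8.82 and 6.95 FPKM in cKO. The groups overlap, since control 3 exceeded cKO 3, and the log2 change of 0.28 (SE 0.12) had an adjusted p of 0.211. Notch2 made up 48.8% ± 2.58 of the summed FPKM of the 4 receptors in control and 49.6% ± 1.79 in cKO (SD, n = 3), a difference smaller than the spread within either group. The 4 receptors together summed to 11.9 to 14.0 FPKM in control and 14.2 to 17.1 FPKM in cKO.

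Notch1 (chromosome 2, 26457903 to 26516663) measured 1.91, 1.67 and 2.14 in control and 2.35, 2.71 and 2.24 FPKM in cKO. Notch3 (chromosome 17, 32120820 to 32166852) measured 3.00, 3.15 and 3.09 in control and 3.65, 3.68 and 3.43 FPKM in cKO. For both receptors all cKO libraries were above all controls, by a narrow margin for Notch1, and neither passed, with log2 changes of 0.24 (SE 0.12, adjusted p 0.268) and 0.17 (SE 0.09, adjusted p 0.318). Notch4 (chromosome 17, 34564268 to 34588503) measured 1.64, 1.32 and 1.56 in control and 2.14, 1.87 and 1.58 FPKM in cKO, with overlapping groups, a log2 change of 0.19 and an adjusted p of 0.412. Exons of Notch1 and Notch3 overlap noncoding genes on the opposite strand and exons of Notch2 overlap Gm42820 on the same strand in GENCODE M21, and the strand setting of the values is not given in the sources used here. No exon of the other 7 genes overlaps another gene there.

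Lfng, lunatic fringe, is a sugar transferase that modifies Notch receptors and tunes which ligands they answer to (chromosome 5, 140607320 to 140615545). It measured 1.80, 2.50 and 2.51 in control and 2.64, 3.36 and 2.20 FPKM in cKO. The groups overlap because cKO 3 was lower than control 2 and control 3. The log2 change was 0.19 with an SE of 0.16 and an adjusted p of 0.506.

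Among the target genes Hey2 stood against the other two. Hey2 (chromosome 10, 30832359 to 30842801), a repressor of the hairy and enhancer-of-split-related family with roles in heart and vessels, measured 31.2, 27.3 and 24.9 in control and 17.8, 16.1 and 21.1 FPKM in cKO. The lowest control library was above the highest cKO library. Hey2 fell by 0.58 on the log2 scale (SE 0.12, 95% interval -0.86 to -0.29, n = 3 per group), at an adjusted p of 0.0476 by limma and an unadjusted p of 0.00186. The adjusted p lies close to the threshold, and the call was lost without control 1 (adjusted p 0.177), control 2 (0.185), cKO 1 (0.15) or cKO 2 (0.0996), with no filter on low values (0.110) and with the 3 controls set against cKO 1 alone (0.141). The direction was kept in all 17 alternatives, between -0.75 and -0.49, and a fit without control 3 and cKO 3 gave a change of -0.75 at an adjusted p of 0.0472.

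Hes1, the founding target of mammalian Notch signalling (chromosome 16, 30064384 to 30067796), measured 20.2, 24.2 and 24.6 in control and 32.8, 25.2 and 33.1 FPKM in cKO. All cKO libraries were above all controls, with cKO 2 only just so. Its log2 change of 0.38 (SE 0.13, 95% interval 0.08 to 0.68) had an unadjusted p of 0.0197 and an adjusted p of 0.131, so it did not pass. Hey1 (chromosome 3, 8663359 to 8667256) measured 6.24, 6.48 and 5.52 in control and 7.0, 6.42 and 8.13 FPKM in cKO, with overlapping groups, a log2 change of 0.21 and an adjusted p of 0.299.

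**Figure D2:**
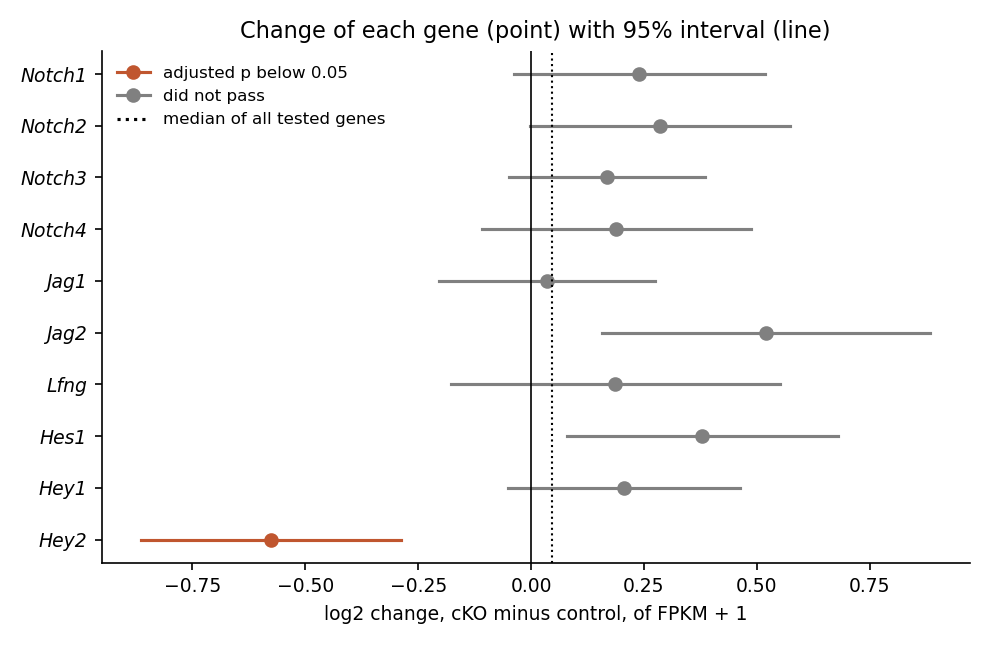
Log2 change of each gene, cKO minus control, on the FPKM + 1 scale (horizontal axis), with limma's 95% interval as a line and the median of all tested genes, 0.05, as a dotted line. Hey2, at -0.58, is the 1 gene past the adjusted threshold, and the intervals of Jag2 and Hes1 also leave out 0.

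Of the 10 genes, 4 were higher in every cKO library than in any control library, where 18.0% of all tested genes were, and 1 was lower, where 12.0% were. At an unadjusted limma p below 0.05, 2 were higher (Jag2 and Hes1) and 1 was lower (Hey2), against 14.5% and 9.80% of all genes.

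The order of Hes1 and Hey2 by FPKM differed between the groups, although of these 2 genes only Hey2 passed. In control, Hey2 led at 27.8 ± 3.17 FPKM, above Hes1 at 23.0 ± 2.42 FPKM (SD, n = 3). The cKO order was the opposite, with Hes1 at 30.3 ± 4.46 FPKM above Hey2 at 18.4 ± 2.57 FPKM. The ranges of these neighbours did not overlap in either group, but in control the gap was narrow. The lowest control value of Hey2 was 24.9 and the highest of Hes1 was 24.6 FPKM, both in control 3. Within a library Hes1 over Hey2 was 0.65, 0.89 and 0.99 in control and 1.84, 1.57 and 1.56 in cKO, so Hey2 was the more abundant per length in 3 of 3 controls and Hes1 in 3 of 3 cKO libraries. Hey2 over Hey1 was 5.0, 4.22 and 4.51 in control and 2.55, 2.50 and 2.60 in cKO. These ratios cancel any scaling of a whole library, and they describe the pairs without a test. The summed FPKM of Hes1, Hey1 and Hey2 ranged from 55.0 to 58.0 in control and from 47.7 to 62.3 in cKO, and these ranges overlap.

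Below the leading pair, Notch2, Hey1, Jag1 and Jag2 followed in control at means from 6.22 down to 4.98 FPKM, and each overlapped its neighbour in that order. Notch3, Lfng, Notch1 and Notch4 came last, from 3.08 down to 1.51 FPKM, where only Lfng and Notch1 overlapped. In cKO Jag2 stood above Hey1 and Jag1, at 7.53 ± 1.13 FPKM (SD, n = 3), with Jag2 and Hey1 overlapping. The last 4 places were held by the same genes in the same order.

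**Figure D3:**
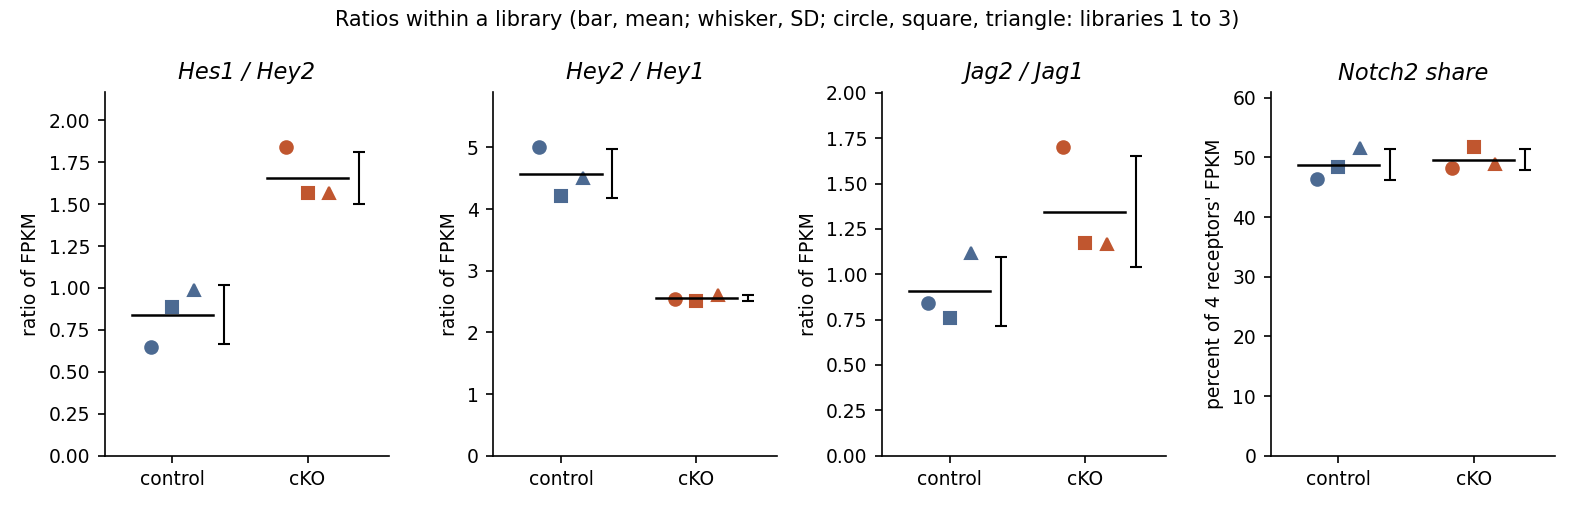
Ratios of FPKM within each library (vertical axes, linear from 0) for Hes1 over Hey2, Hey2 over Hey1 and Jag2 over Jag1, and the share of Notch2 in the summed FPKM of the 4 receptors, in percent. The first ratio is below 1 in the 3 controls and at least 1.56 in the 3 cKO libraries, the second is 4.22 or more in the controls and 2.60 or less in cKO, and the share of Notch2 overlaps between the groups.

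The start regions of 8 of the 10 genes were found in RefSeq (GRCm38.p6), as windows from 250 bases before to 50 bases after the transcript start. The target genes Hes1 and Hey1 had no window and were not searched, and neither was the related target gene Heyl, described below. These windows were searched on both strands for the exact letters CGTGGGAA, a sequence that RBPJ is known to bind, whose reverse complement is TTCCCACG. Hey2 and Lfng held it and the other 6 did not, while of 43 other pathway genes with a window 0 held it. Of all 32851 windows 241 (0.734%) held it at least once, and 4 held it more than once, Hey2 among them. Both regions are shown because they carry the same letters next to genes that differ in the comparison, with Hey2 lower in cKO and Lfng not passing. The Hey2 run ends with its second match, 3 bases into the transcript. Capitals mark the matches, which start at bases -207 and -5 from the start of Hey2 (minus strand) and at base -110 from that of Lfng (plus strand). A match describes the sequence and does not show binding, and a window without these exact letters is not shown to lack an RBPJ site.
Hey2, chr10:30842781-30843033: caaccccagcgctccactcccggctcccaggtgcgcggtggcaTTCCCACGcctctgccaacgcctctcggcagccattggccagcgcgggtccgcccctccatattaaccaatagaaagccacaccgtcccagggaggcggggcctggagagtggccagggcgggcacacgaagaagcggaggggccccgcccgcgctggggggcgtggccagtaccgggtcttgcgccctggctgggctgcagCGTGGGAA
Lfng, chr5:140607091-140607340: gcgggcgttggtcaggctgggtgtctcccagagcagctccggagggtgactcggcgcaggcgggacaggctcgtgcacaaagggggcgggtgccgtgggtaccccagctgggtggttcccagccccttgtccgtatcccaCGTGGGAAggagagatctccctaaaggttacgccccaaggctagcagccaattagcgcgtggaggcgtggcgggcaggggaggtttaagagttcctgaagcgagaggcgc

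The rest of the pathway was read from a list of 54 other genes, all in the table, of which 50 were tested. None passed the adjusted threshold, in either direction. At an unadjusted limma p below 0.05, 11 were higher and 5 lower in cKO (14.5% and 9.80% of all genes tested), and the groups did not overlap for 16 higher and 6 lower genes of the 50 (18.0% and 12.0% of all genes tested). The median log2 change was 0.11, with 39 positive and 11 negative. Hes2 was listed at 0 in every library, and Hes3, Hes5 and Hes7 were under the filter on low values. Of these, Hes5 measured 0.079, 0 and 0.045 in control and 0.42, 0.24 and 0.41 FPKM in cKO. These values lie near the floor, were not tested, and are given after being seen.

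Among the other ligands, the noncanonical ligand gene Dlk1 measured 2.50, 2.35 and 7.50 in control and 15.7, 9.86 and 10.1 FPKM in cKO. Its paralog Dlk2 measured 1.61, 1.37 and 0.86 in control and 0.25, 0.30 and 0.54 FPKM in cKO. The groups stood apart in opposite directions for this pair, and control 3 was the control nearest to cKO for both. Neither passed, with log2 changes of 1.44 (SE 0.36, adjusted p 0.0691) and -0.73 (SE 0.17, adjusted p 0.0610). Without control 3 both passed, with log2 changes of 1.88 (limma adjusted p 0.00968) for Dlk1 and -0.87 (0.0347) for Dlk2. Without any other single library neither passed, at adjusted p from 0.112 to 0.240 for Dlk1 and from 0.0689 to 0.228 for Dlk2. The Delta ligand genes Dll1 and Dll4 had log2 changes of 0.38 and 0.03, with Dll4, a ligand of vessel sprouts, at 2.16 ± 0.07 against 2.23 ± 0.24 FPKM in control and cKO (SD, n = 3).

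Heyl, the third gene of the HEY family and the target gene on the list with the highest mean over all 6 libraries, measured 45.5, 32.3 and 22.5 in control and 19.8, 18.4 and 16.2 FPKM in cKO. Like Hey2 it was lower in every cKO library than in any control, with its lowest control value in control 3. Its log2 change of -0.80 (SE 0.23) had an adjusted p of 0.0887, which became 0.0234 without control 3 and 0.163 to 0.265 without any other single library. Without control 1 the log2 change was -0.55. Hes6, a HES family gene that is not itself a classical Notch target, had a log2 change of 0.34 at an adjusted p of 0.116.

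The groups overlapped for 8 of 10 genes that cut the receptor and 5 of 8 genes of the nuclear complex. Over all genes tested they overlapped for 10454 of 14934, a similar share. Psenen, a gamma-secretase subunit gene and the most abundant of its group, averaged 114 ± 4.32 against 121 ± 13.3 FPKM in control and cKO (SD, n = 3; adjusted p 0.632). Rbpj, the DNA-binding partner of the receptors, measured 27.7, 27.5 and 23.6 in control and 26.1, 21.3 and 23.8 FPKM in cKO, with overlapping groups and a log2 change of -0.14. The protease gene Adam17 was lower in every cKO library than in any control, with a log2 change of -0.30 and an adjusted p of 0.115. Of 7 corepressor genes 3 did not overlap and were higher in cKO (18.0% of all genes tested were), among them Tle3 at 0.48 (adjusted p 0.0608). Poglut1, Mib1, Snw1 and Dtx3, the genes with the highest mean over all 6 libraries for receptor glycosylation, ligand uptake, the nuclear complex and turnover, had log2 changes of 0.02, -0.12, -0.04 and 0.20, and the sign turned with scaling or with the libraries used for Poglut1, Snw1 and Dtx3, as it did for Psenen without cKO 3. Among these genes, Dlk2, Dll1, Dll4, Hes6, Rbpj, Adam17 and Tle3 were picked with their values in view.

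**Figure D4:**
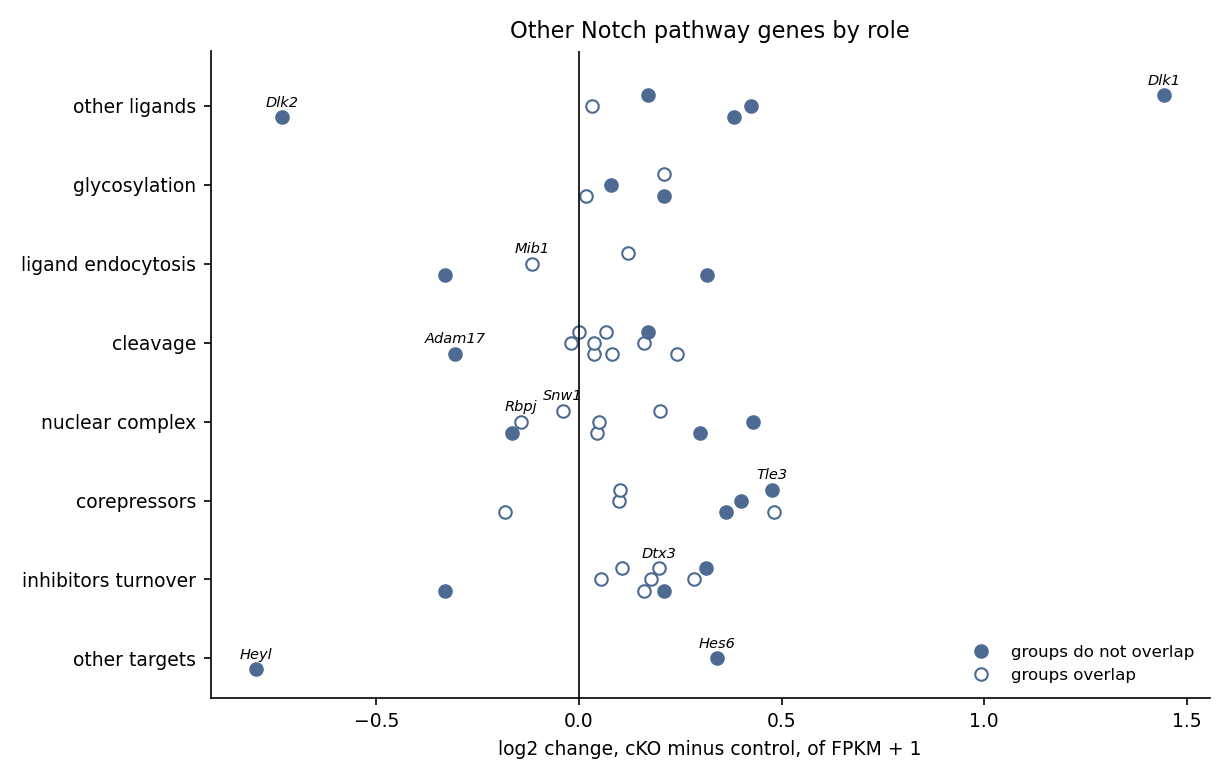
Log2 change, cKO minus control, on the FPKM + 1 scale (horizontal axis) of the 50 tested genes of the wider pathway, in rows by role, with filled points where the 2 groups do not overlap. Dlk1 at 1.44 lies farthest to the right and Heyl at -0.80 and Dlk2 at -0.73 farthest to the left, and none passed the adjusted threshold.

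Cell type markers moved with some of these genes, and their part in the results was not tested. In whole ovary, fewer cells of a type and less RNA per cell cannot be told apart. Of 12 granulosa cell markers 4 fell (Inha, Inhbb, Hsd17b1 and Fst) and 2 rose (Wnt4 and Gatm). Over all genes tested, 2.09% fell and 2.24% rose. The log2 change was negative for 8 of the 12 and positive for 4. The summed FPKM of the 12 was 2800 to 3582 in control and 1904 to 2314 in cKO, with none at 0. Of 12 proliferation genes 7 fell and 0 rose, against 2.09% and 2.24% of all genes tested. The summed FPKM of these 12 was 662 to 730 in control and 440 to 500 in cKO. Hey2 relative to the granulosa gene Inha, an inhibin subunit gene that fell, was 0.0139, 0.0134 and 0.0141 in control and 0.0140, 0.0146 and 0.0149 in cKO. Relative to Foxl2, which had a higher mean in cKO, Hey2 was 0.35, 0.35 and 0.29 in control and 0.13, 0.17 and 0.19 in cKO. Relative to Amh, the granulosa hormone gene, which did not pass, Hey2 was 0.110, 0.102 and 0.119 in control and 0.069, 0.071 and 0.093 in cKO. The ratio to Inha thus overlapped between the groups, and the ratios to Foxl2 and Amh were lower in all 3 cKO libraries than in any control. Inha, Foxl2 and Amh were chosen for these ratios after their values were seen.

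Markers of vessel cells were read beside the vessel-borne receptors. Of 16 endothelial markers none passed, and 2 were higher at an unadjusted limma p below 0.05 (14.5% of all genes tested were). A positive log2 change was found for 15 of them (58.5% of all genes), with a median of 0.23 (0.05 over all genes). Their summed FPKM was 250 to 264 in control and 284 to 318 in cKO, without overlap, and none was at 0. Notch4 relative to Cdh5, the cadherin gene of endothelial cells, was 0.070, 0.060 and 0.067 in control and 0.063, 0.070 and 0.068 in cKO, and these ranges overlap. Of 11 mural cell markers none passed. At an unadjusted limma p below 0.05, 3 were higher and 1 lower, against 14.5% and 9.80% of all genes tested. Of the 11, 8 had a positive log2 change and 3 a negative one, with a median of 0.1. The summed FPKM of the mural markers overlapped, at 946 to 1131 in control and 764 to 1041 in cKO. Most of this sum was Acta2, at a mean of 638 FPKM in control and 545 FPKM in cKO. Notch3 relative to Pdgfrb, a receptor gene of mural cells and stroma, was 0.18, 0.20 and 0.20 in control and 0.21, 0.25 and 0.20 in cKO.

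Oocyte markers were read beside Jag1. In whole ovary the Jag1 value is not split by cell type, and how much of it came from oocytes was not tested. Of 12 oocyte genes 3 rose (Zp2, Zp3 and Figla) and none fell, against 2.24% and 2.09% of all genes tested. The log2 change was positive for 9 of the 12 and negative for 3 (Bmp15, Dazl and Oosp1). The summed FPKM of the 12 was 1014 to 1152 in control and 1336 to 2072 in cKO, without overlap and with none at 0. Its largest parts were Zp2 and Zp3, at means of 241 and 277 FPKM in control and 452 and 484 FPKM in cKO. In the stroma list 2 of 9 rose and 1 fell, with summed FPKM of 1368 to 1455 in control and 1639 to 2054 in cKO. Of 8 theca markers none passed, and 2 were higher at an unadjusted limma p below 0.05 (14.5% of all genes tested were). Of the 8, 7 had a positive log2 change, with a median of 0.54. The summed theca FPKM overlapped between the groups, but most of it was Hsd3b1, at a mean of 1335.1 FPKM in control and 1289.5 FPKM in cKO. Jag1 and the oocyte sum were both at their highest in cKO 3 (6.37 and 2072 FPKM), while in cKO 1 Jag1 was at its lowest of the 6 libraries (5.13 FPKM) and the oocyte sum was 1635 FPKM.

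**Figure D5:**
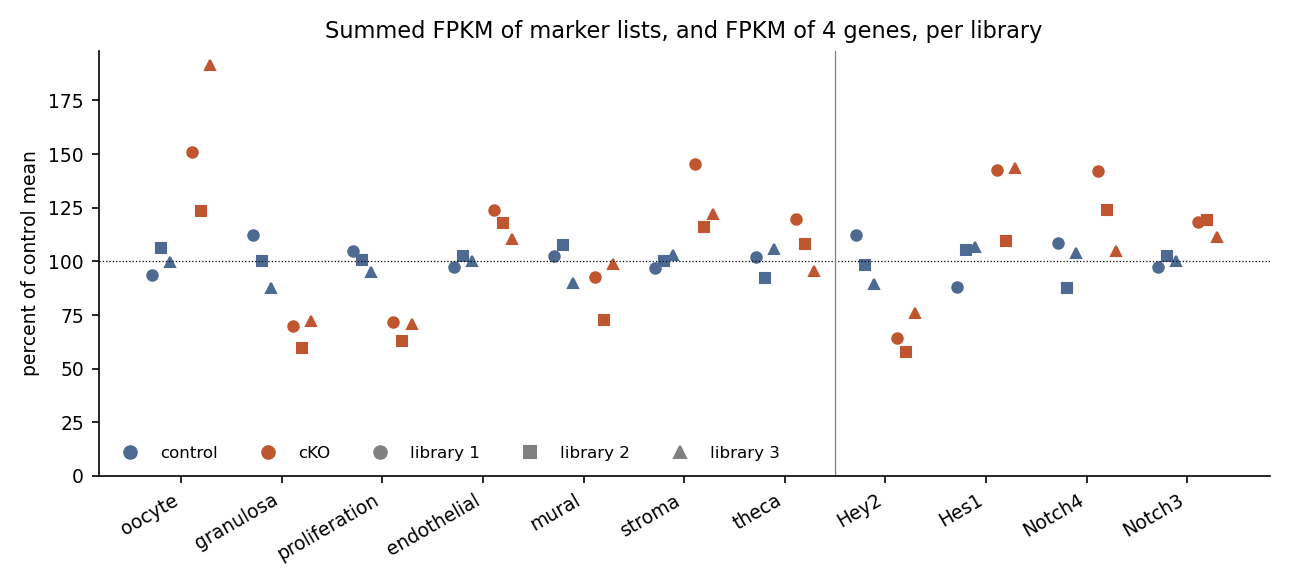
Summed FPKM of 7 marker lists and FPKM of 4 Notch pathway genes in each library, as percent of the control mean (vertical axis, linear from 0), with symbols for the 3 libraries of each group. Granulosa and proliferation sums and Hey2 lie lower in all 3 cKO libraries than in any control, while the oocyte, endothelial and stroma sums, Hes1 and Notch3 lie higher. Most of the granulosa sum is Inha, most of the mural sum is Acta2, and most of the theca sum is Hsd3b1. Zp2 and Zp3 are the largest parts of the oocyte sum.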

How the data were processed

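RNA from 6 pooled ovary libraries was sequenced on an Illumina HiSeq, per the labels' protocols. The authors deposited 1 table of FPKM values, 1 per Ensembl gene and library. Per the submitters' processing notes, which give no roles, TopHat2 2.0, Cufflinks 2.0 and mm10 were used. Annotation, strand use and any scaling across libraries were not given in the sources used here. FPKM is read as the unit because Cufflinks writes it and the values fit it. No counts were used, so no count model was fitted.

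Groups follow the genotype label, and replicate numbers follow accession order and only name libraries. Genes with a mean FPKM of at least 0.5 entered limma 3.58.1 in R 4.3.3 (lmFit and eBayes, trend on) with values as log2(FPKM + 1), which understates changes of low genes, and p was adjusted over all 14934 genes. Ratios and sums were computed on FPKM. Depth was estimated from FPKM below 0.15 read as 1 fragment, in single-transcript genes whose exons sum to 1500 bases or more (150 taken off), and carries no interval. Coordinates and overlaps are from GENCODE M21 (the mm10 assembly, 1-based). The procedure was tested on simulated data. Named genes are the 10 genes, the most abundant gene of each pathway role by its mean over all libraries, any that passed, and those stated as chosen later. The check of the targeted gene and the most abundant gene of the corepressor role are not reported here. The members and lists were chosen with earlier results of these data known.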

Additional observations from a re-analysis of the deposited data

How the results depend on the processing

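No paired analysis was possible because genotype labels carry no replicate numbers. Across 17 alternatives, the 10 genes kept their direction in 164 of 169 values, and the other 5 were Jag1: -0.063 after quantile normalisation, -0.030 with libraries centred on the median, -0.026 without control 3 and cKO 3, -0.083 with the 3 controls against cKO 1, and -0.039 (without cKO 3) to 0.095 with 1 library left out. Sign changes among the wider pathway were Poglut1 (-0.00022 after quantile normalisation, -0.048 centred on the median, -0.018 with array weights, -0.038 without control 3 and cKO 3, and -0.025 to 0.068 with 1 library left out, negative without control 3 or cKO 1), Psenen (-0.0043 without cKO 3, to 0.14 with another library left out), Snw1 (0.0033 centred on the reference genes, 0.084 against cKO 1 alone, and -0.10 to 0.025 with 1 library left out, positive without cKO 2) and Dtx3 (-0.083 against cKO 1 alone), none of them past the threshold.

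Of the 10 genes, 0 to 1 rose and 0 to 1 fell with 1 library left out; 1 rose with array weights (Jag2, adjusted p 0.0268), and 0 fell with no filter on low values, where 23854 genes were tested, or against cKO 1 alone. Of the wider pathway, 0 to 1 rose and 0 to 2 fell with 1 library left out, 3 rose and 3 fell with array weights, 1 rose at a mean FPKM of at least 2, 1 rose and 1 fell without control 3 and cKO 3, and 1 fell with median centring or robust eBayes. Of all genes, 334 rose and 312 fell; 0 to 307 rose and 2 to 353 fell with 1 library left out, 4 and 24 with no filter, 1041 and 743 with array weights, 204 and 267 without control 3 and cKO 3, and 22 and 1 against cKO 1 alone, where the lone cKO library is assumed to vary like the controls. With 1 library left out, the counts were 1 and 4 without control 1, 0 and 2 without control 2 and again without cKO 1, 40 and 38 without cKO 2, 307 and 353 without control 3, and 209 and 176 without cKO 3. Median centring gave 254 and 577 and quantile normalisation 270 and 421, which lowers the share that rose from 51.7% to 30.6% and 39.1%. The cause of these shifts was not tested. What depth limits was not computed gene by gene.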
